A study of Mus musculus with 4 samples.

Results

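The 38 genes described here are dendritic cell genes, most of them known from plasmacytoid dendritic cells, measured in regulatory T cells (Treg) sorted from mouse spleen. They were taken from the 38924 gene identifiers of the count table by symbol, and many were picked because they were higher in activated than in resting Treg. The difference between the groups is therefore a description of these genes, with no test, and it supports nothing. RNA was sequenced from 2 samples of activated Treg and 2 of resting Treg, in a series on Treg with different degrees of activity of the transcription factor Foxo1, by its title. Each group has duplicates from independent mice, and the sources used here state no strain, age, genotype or treatment. The labels describe both populations as CD4+ and Foxp3+ and print 1 surface gate, with CD44 low, for activated and resting cells alike. That gate names no marker of dendritic cells. The columns of counts carry the group but no usable replicate number, so the libraries are called activated A, activated B, resting A and resting B. The letters are names only and were not used to pair libraries.

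Plasmacytoid dendritic cells make large amounts of type I interferon when Toll-like receptors in their endosomes meet viral nucleic acids. Their identity depends on the E protein Tcf4, acting with Spib, Irf8 and Runx2, and their growth on the cytokine receptor Flt3. In mice they carry the lectin Siglec-H and the virus-tethering protein Bst2 on their surface. Conventional dendritic cells share many of these genes, and some of the 38, such as Itgax, Zbtb46, Batf3 and Cst3, are known mainly from them.

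The libraries held 29332058 and 20282062 counts in activated A and B, and 20699024 and 31851982 counts in resting A and B. Levels are given as CPM, counts brought to a common library total with trimmed means of M values (TMM), and 1 CPM stood for between 20.3 and 30.6 counts. Cd44 differed in the direction of the group labels, unlike the shared gate, and had 329 and 335 CPM in activated A and B against 145 and 213 CPM in the resting libraries. Foxp3 had 37.5 and 36.7 CPM in activated and 38.8 and 35.1 CPM in resting libraries. T cell genes were abundant in all libraries: the 12 of the list summed to 9497 and 12596 CPM in activated and 9995 and 11341 CPM in resting libraries. Of 14235 genes tested, edgeR's quasi-likelihood test with Benjamini-Hochberg adjustment called 0 between the groups. These are 0% in either direction; unadjusted p-values under 0.05 were held by 897 genes on the higher side (6.3%) and 371 on the lower side (2.61%). DESeq2 called 306 genes higher (1.93% of those it tested) and 106 lower (0.668%). Activated A and activated B differed from each other in the genes described here. Most genes of the macrophage list were higher in the A library of each group. Both points are set out before the single genes below.

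As a group the 38 genes stood higher in the activated libraries. Their summed level was 3041 and 1107 CPM in activated A and B, against 421 and 426 CPM in resting A and B. This was 0.317% and 0.111% of all counts in activated A and B, and 0.0419% and 0.0410% in resting A and B. In 35 of the 38 genes both activated libraries lay above both resting ones, as in 19.8% of all genes tested. The groups overlapped in Tlr7, Tlr9 and Pacsin1. At least 2-fold higher, by the log2 fold change of edgeR with a prior count of 2, were 33 genes, and 0 were at least 2-fold lower, where the shares among all genes tested were 9.65% and 2.01%. These shares stand here for scale, and nothing is read from them, because the same contrast chose many of the genes. The median log2 fold change, activated over resting, was 4.32, within a range of -0.62 to 8.22, against -0.01 over all genes tested. In bulk RNA of this kind, fewer cells of a type and less RNA per cell cannot be told apart.

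**Figure D1:**
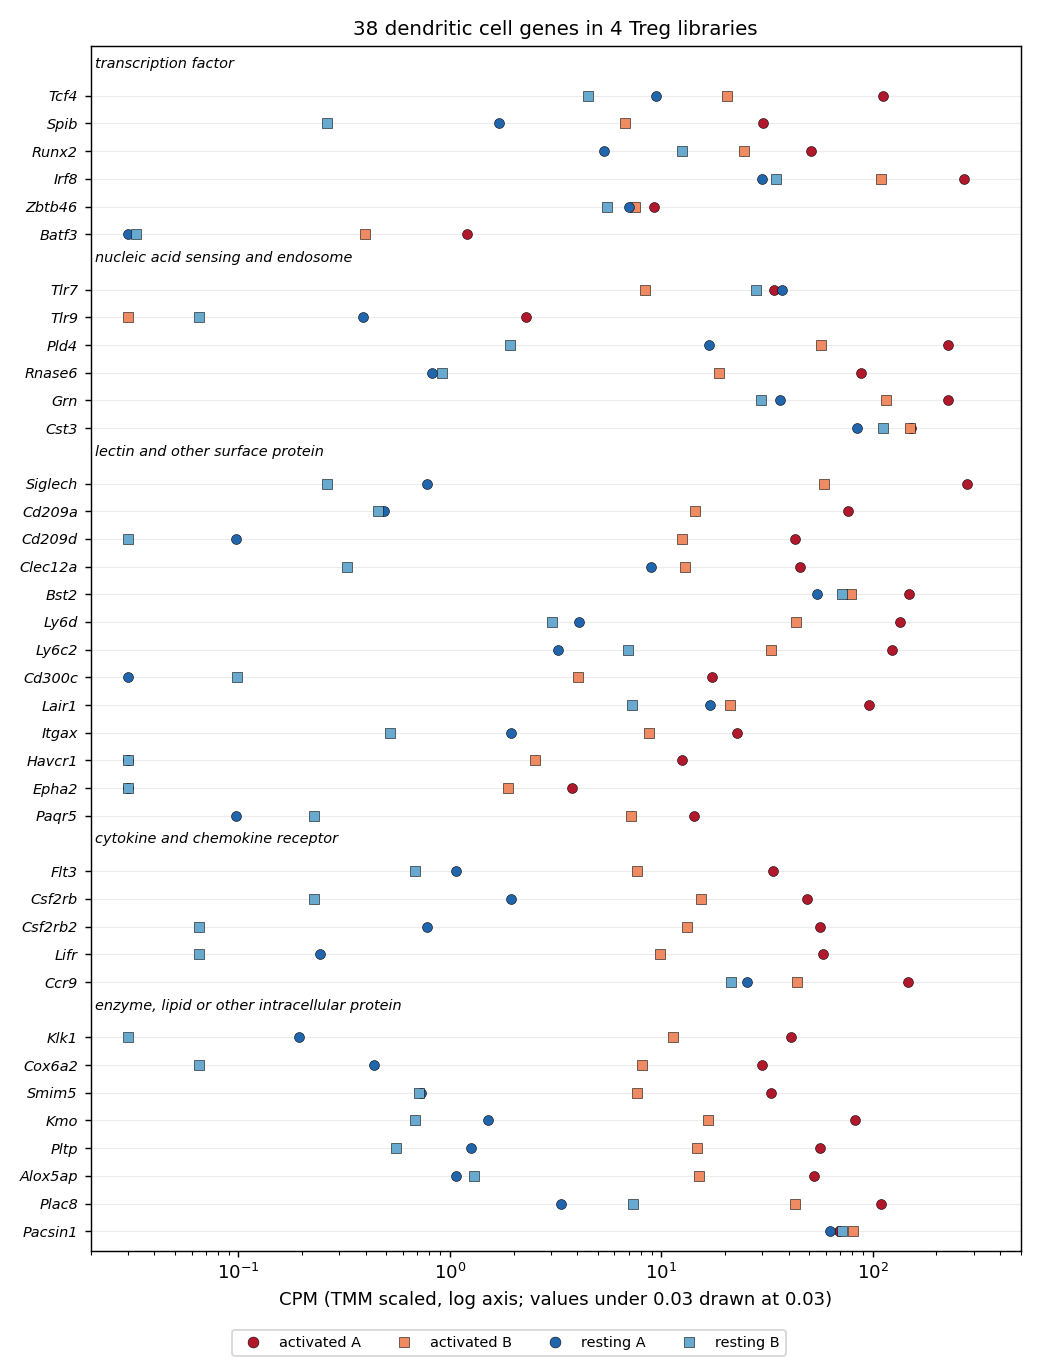
Level of each of the 38 genes in the 4 libraries, in CPM on a log axis, grouped by role; red and orange marks are activated A and B, blue marks resting A and B. Siglech lies between 58.7 and 279.7 CPM in activated libraries and under 1 CPM in resting ones, while Tlr7, Zbtb46, Cst3, Bst2 and Pacsin1 lie within 2-fold between the groups.

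The 2 activated libraries differed widely in these genes. Of the 38, 37 were higher in activated A than in activated B, as were 7364 of all 14235 genes tested. With 0.5 CPM added to each value, 30 of the 38 were at least 2-fold higher in A and 0 at least 2-fold lower. Among all genes tested these shares were 7.29% and 3.87%. The ratio of A to B had a median of 3.65, with a middle range of 2.53 to 4.38, and ran from 0.864 for Pacsin1 to 5.92 for Lifr. Over all genes tested the median ratio was 1.02. Between resting A and B the median ratio of the 38 genes was 1.30, with 7 at least 2-fold higher in A and 2 at least 2-fold lower, against 4.06% and 4.76% of all genes tested. The standard deviation (SD) of the activated group was therefore large beside its mean for most of them. Without activated A, 29 of the 36 genes in that fit were at least 2-fold higher and 1 was lower, with 15.5% of genes that high, and the median log2 fold change was 3.16. Without activated B, 34 were at least 2-fold higher, with 11% of genes that high, and the median was 5.02. Without resting A or resting B the medians were 4.79 and 4.29.

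**Figure D2:**
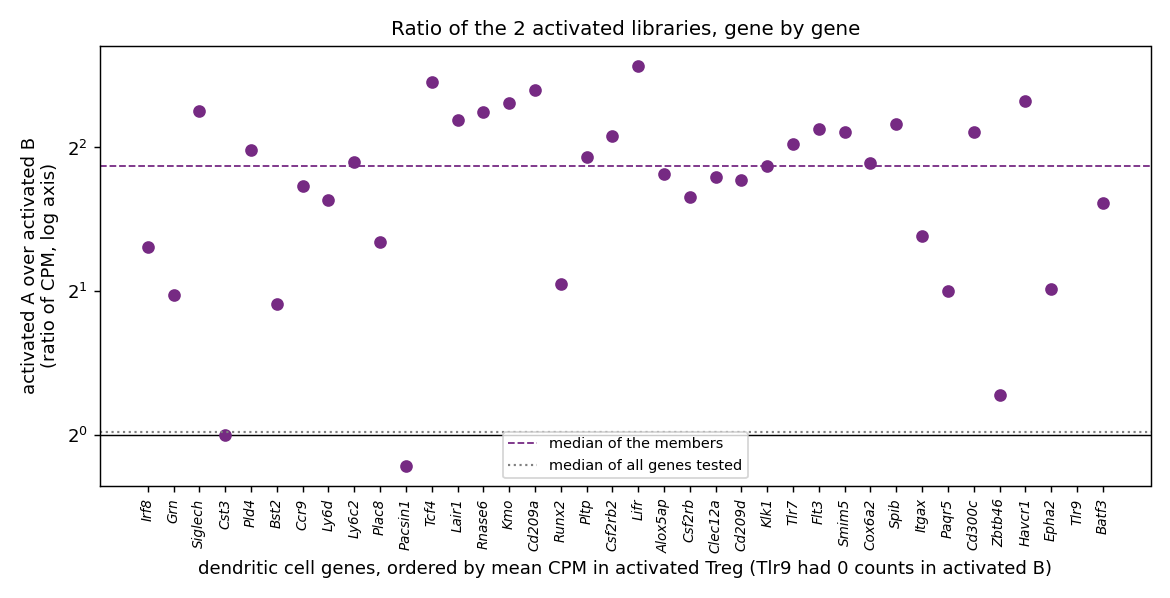
Ratio of CPM in activated A to CPM in activated B for 37 of the 38 genes, on a log axis, ordered by mean level; Tlr9 is not drawn because it had 0 counts in activated B. The middle of the points lies between 2.53 and 4.38, around a median of 3.65 (dashed), Pacsin1 and Cst3 lie at about 1, and the dotted line is the median of all genes tested, 1.02.

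Markers of other cells did not all follow the same libraries. Conventional dendritic cell genes, 19 in the list, summed to 5875 and 2627 CPM in activated A and B, against 874 and 571 CPM in resting A and B. Macrophage and monocyte genes, 20 in the list, summed to 1168 and 236 CPM in activated A and B, against 1204 and 203 CPM in resting A and B. Most, but not all, of them were higher in the A library of each group. In the activated libraries 15 of the 20 were at least 2-fold higher in A and 1 at least 2-fold lower, against 7.29% and 3.87% of all genes tested. Between the resting libraries these were 16 and 3, against 4.06% and 4.76%. F13a1, chosen after its values were seen, had 1.47 and 4.98 CPM in activated and 0.583 and 3.33 CPM in resting libraries. Slc40a1, the iron exporter of macrophages, had 300.5 and 3.36 CPM in the activated libraries, against 334 and 4.24 CPM in the resting ones. Vcam1, an adhesion molecule also known from spleen macrophages, had 179 and 8.93 CPM in activated and 224 and 4.41 CPM in resting libraries. By summed level, resting A held macrophage genes near the level of activated A and the 38 genes near the level of resting B. Genes with high resting levels weigh most in such sums, such as Cst3 with 84.5 and 112 CPM in resting A and B. Gene by gene, 7 of the 38 were at least 2-fold higher in resting A than in resting B, and 2 were at least 2-fold lower. Clec12a, for 1, had 8.94 and 0.326 CPM. B cell genes summed to 116 and 129 CPM in activated and 68.7 and 76.8 CPM in resting libraries. NK cell genes summed to 238 and 77.4 CPM in activated and 81.4 and 22.9 CPM in resting libraries, and neutrophil genes reached 3.08 CPM at most. Plasma cell genes summed to 218 and 250.4 CPM in activated and 119 and 187 CPM in resting libraries, CD8 T cell genes to 81.8 and 35.8 CPM in activated and 30.4 and 27.3 CPM in resting libraries, and erythroid genes to 15.2 and 2.62 CPM in activated and 26.8 and 1.14 CPM in resting libraries. Sums of these lists are not levels of cell types. The NK cell list includes Tyrobp and Fcer1g, and the plasma cell list Prdm1, Irf4 and Xbp1, which are not particular to those cells. In each library 5 of the 10 NK cell genes reached 1 CPM. The part of any of these cells in the values below was not tested.

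**Figure D3:**
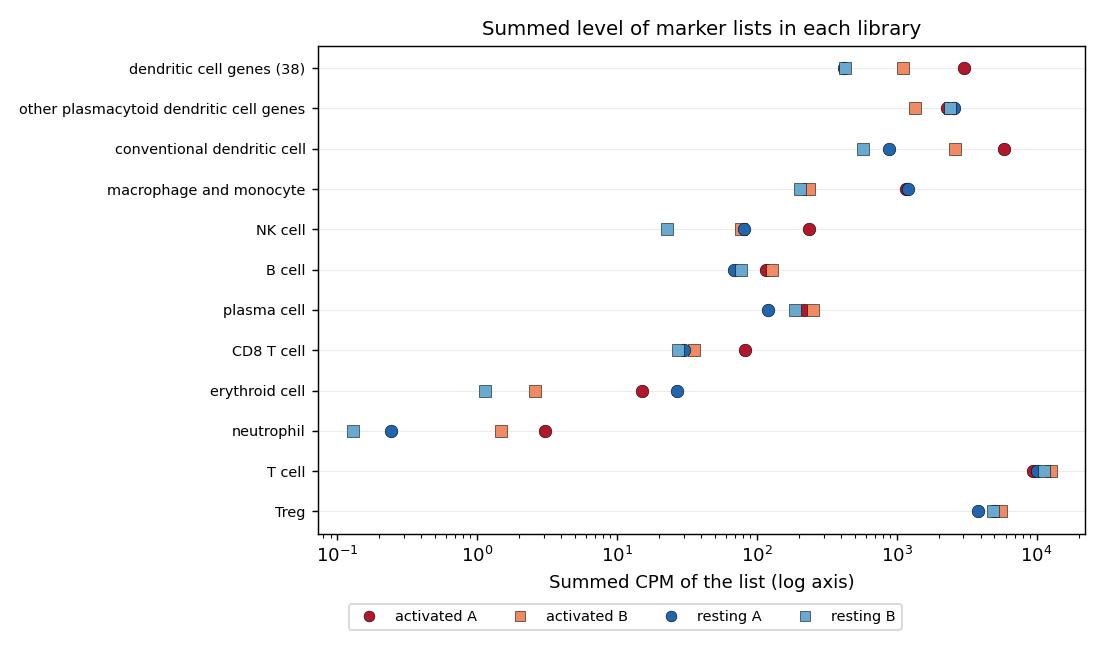
Summed CPM of each marker list in the 4 libraries, on a log axis; red and orange marks are activated A and B, blue marks resting A and B. The 38 genes and the conventional dendritic cell genes are higher in both activated libraries, most in activated A, while macrophage genes are at 1168 and 1204 CPM in the A libraries and at 236 and 203 CPM in the B libraries.

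Among the transcription factors, 5 of 6 were at least 2-fold higher in activated Treg (9.65% of all genes tested), with a median log2 fold change of 2.87. Tcf4, the E protein that fixes plasmacytoid identity, had 112 and 20.5 CPM in activated A and B, against 9.43 and 4.50 CPM in resting A and B. All 4 libraries held the transcript, and the gap between the activated libraries, 5.48-fold, was wider than that from activated B to resting A. Its log2 fold change was 3.25. Spib, an Ets factor of plasmacytoid and B cells, had 30.3 and 6.76 CPM in activated and 1.70 and 0.261 CPM in resting libraries, a log2 fold change of 4.18, and 5.78 without resting A. Irf8, an interferon regulatory factor needed for dendritic cell development, had 271 and 109.6 CPM in activated and 30.0 and 34.8 CPM in resting libraries, a log2 fold change of 2.55. The resting libraries lay close to each other for Irf8 and held 617 and 1066 of its counts. Runx2, a Runt factor that plasmacytoid cells need to leave the bone marrow in mice, had 51.0 and 24.6 CPM in activated and 5.35 and 12.5 CPM in resting libraries. Here the higher resting library was resting B, and the log2 fold change was 2.07.

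The factors known from conventional dendritic cells had, per length of exon, the lowest activated levels of the 6. Zbtb46, which marks their committed lineage, had 9.19 and 7.55 CPM in activated and 7.05 and 5.55 CPM in resting libraries, with 0.41 as log2 fold change. All of its values lay within a narrow band, although both activated libraries were above both resting ones. Batf3, needed for the cross-presenting subset, had 37 and 8 counts in activated A and B and 0 and 1 counts in resting A and B. With so few resting counts the ratio of the group totals was 45.3, with a 95% counting interval from 7.73 to 1830, and the gene did not pass the filter on low counts. Such intervals cover counting error alone, and reads amplified by PCR without molecular identifiers are not independent molecules.

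Partners of Tcf4 did not all share its profile. Of 10 genes of E proteins and their inhibitors, chosen as a list with earlier results known, edgeR called 0, as over all genes. In this list 3 had an unadjusted edgeR p below 0.05, all on the higher side, against 6.3% higher and 2.61% lower over all genes. DESeq2 called 3 higher and 0 lower, against 1.93% and 0.668%. Id2, an inhibitor of E proteins that opposes plasmacytoid fate, had 244 and 357 CPM in activated and 89.6 and 103 CPM in resting libraries, and so was higher in activated B, unlike Tcf4. Id3, a related inhibitor abundant in T cells, had 215 and 342 CPM in activated and 270 and 433 CPM in resting libraries, with overlapping groups. Tcf12, another E protein, had 84.2 and 54.0 CPM in activated and 84.9 and 67.8 CPM in resting libraries. Ldb1, an adaptor of transcription complexes, had 49.6 and 51.5 CPM in activated and 54.7 and 53.2 CPM in resting libraries. Bcl11a, a zinc finger factor that mice need to form plasmacytoid cells, had 24.5 and 6.56 CPM in activated and 0.632 and 0.131 CPM in resting libraries. Bcl11a lies outside the rule for named genes and was chosen after its values were seen.

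Of the 6 genes of nucleic acid sensing and the endosome, 4 were at least 2-fold higher (9.65% of all genes tested). Their median log2 fold change was 2.21. Tlr7, the endosomal receptor for single-stranded RNA, had 34.0 and 8.34 CPM in activated and 37.1 and 28.1 CPM in resting libraries. The groups overlapped, activated B was the lowest of the 4, and the log2 fold change was -0.62. Without activated A, Tlr7 was the gene at least 2-fold lower. Tlr9, the receptor for unmethylated CpG DNA, had 70 and 0 counts in activated A and B, against 8 and 2 counts in resting A and B. A count of 0 in activated B allows a level of up to 0.148 CPM, counting 3 reads as the limit, so Tlr9 was not detectable at this depth there and the groups overlapped. Its log2 fold change of 2.05 puts it among the 4 genes at least 2-fold higher on activated A alone, and it was 0.50 on the authors' regularized log2 scale.

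The other 4 genes encode a pair of nucleases, a cofactor and a protease inhibitor. Pld4, an exonuclease that degrades single-stranded nucleic acids in endosomes, had 226 and 57.1 CPM in activated and 16.8 and 1.93 CPM in resting libraries, a log2 fold change of 3.93. Resting A was well above resting B for Pld4, by 8.71-fold, and the log2 fold change was 6.13 without resting A and 2.63 without activated A. Rnase6, a secreted ribonuclease of the RNase A family, had 88.4 and 18.7 CPM in activated and 0.826 and 0.914 CPM in resting libraries, a log2 fold change of 5.82. The resting libraries were nearly equal for Rnase6, with 17 and 28 counts. Grn encodes progranulin, a cofactor for delivery of CpG DNA to Tlr9, and had 227 and 115 CPM in activated and 36.5 and 29.6 CPM in resting libraries, a log2 fold change of 2.37. Cst3, which encodes the protease inhibitor cystatin C, had 151 and 151 CPM in activated and 84.5 and 112 CPM in resting libraries. The activated libraries were equal for Cst3 and its log2 fold change was 0.62.

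Around the receptors, a list of 23 genes of the Toll-like receptor 7 and 9 pathway, which leaves out the 38 genes, had a median log2 fold change of 0.07. In this list edgeR called 0 genes, as over all genes. An unadjusted edgeR p below 0.05 was held by 4, all on the higher side, against 6.3% higher and 2.61% lower over all genes. DESeq2 called 3 higher and 0 lower, against 1.93% and 0.668%. Myd88, the adaptor of these receptors, had 92.7 and 103 CPM in activated and 92.8 and 109 CPM in resting libraries. Irf7, the factor that switches on interferon genes, had 159 and 139.7 CPM in activated and 139.9 and 155 CPM in resting libraries. Ctsb, a cysteine protease of endosomes, had 1404 and 1263 CPM in activated and 882 and 686 CPM in resting libraries. Hsp90b1, a chaperone of Toll-like receptors, had 350 and 258 CPM in activated and 249 and 263 CPM in resting libraries, and Ikbkb, a kinase of the NF-kB pathway, had 305 and 216 CPM in activated and 358 and 293 CPM in resting libraries. Unc93b1, which carries the receptors to endosomes, had 135 and 76.4 CPM in activated and 27.0 and 18.9 CPM in resting libraries; it and Myd88 lie outside the rule for named genes and were chosen after their values were seen.

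Lectins and other surface proteins held 13 of the 38 genes, and 12 were at least 2-fold higher (9.65% of all genes tested). Their median log2 fold change was 5.22. Siglech, the sialic acid binding lectin of mouse plasmacytoid cells, had 8548 and 1190 counts in activated A and B, against 16 and 8 counts in resting A and B. In CPM these were 279.7 and 58.7 in activated and 0.778 and 0.261 in resting libraries, or 169 ± 156 and 0.519 ± 0.365 CPM (mean ± SD, n = 2 each). Activated A and B were far above both resting libraries, and its log2 fold change of 8.22 was the highest of all 14235 genes tested at a prior count of 2. At a prior count of 0.5 it was 8.38, below 8.86 for Cd209d and 8.60 for Havcr1, which have 2 and 0 resting counts in all. On the authors' regularized log2 scale, which shrinks low counts, it had 12.39 and 10.30 in activated replicates 1 and 2 and 4.88 and 3.84 in resting replicates 1 and 2. Siglech lies at chr7:55768178-55778925 on the plus strand (mm10, GENCODE M21).

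The C-type lectins included a pair of related genes on chromosome 8. Cd209a, a mouse relative of the human lectin DC-SIGN, had 76.6 and 14.5 CPM in activated and 0.486 and 0.457 CPM in resting libraries, a log2 fold change of 6.38. Cd209d, another relative, had 43.1 and 12.6 CPM in activated libraries, and 2 and 0 counts in resting A and B. Its ratio of group totals was 792, with a 95% counting interval from 219 to 6544. Clec12a, an inhibitory lectin that binds uric acid crystals, had 45.1 and 12.98 CPM in activated and 8.94 and 0.326 CPM in resting libraries. Resting A was close to activated B for Clec12a and 27.4-fold above resting B. Its log2 fold change was 2.65, and 6.17 without resting A.

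Bst2, which tethers budding viruses and is induced by interferon, was the exception among the surface proteins. It had 149 and 79.4 CPM in activated and 54.6 and 71.2 CPM in resting libraries, a log2 fold change of 0.86, and activated B lay just above resting B. Bst2 passed 2-fold without activated B (1.24) and without resting B (1.06). Ly6d, a surface protein of B cell progenitors and of a plasmacytoid lineage in mice, had 134 and 43.2 CPM in activated and 4.08 and 3.04 CPM in resting libraries, a log2 fold change of 4.62. The resting values of Ly6d were low and close together. Lair1, an inhibitory receptor for collagen, had 96.5 and 21.1 CPM in activated and 17.0 and 7.25 CPM in resting libraries, so activated B was only slightly above resting A. The log2 fold change of Lair1 was 2.28, and 0.81, under 2-fold, without activated A. Itgax, the integrin subunit CD11c of dendritic cells, had 22.9 and 8.78 CPM in activated and 1.94 and 0.522 CPM in resting libraries. Paqr5, a membrane receptor for progestins, had 14.3 and 7.16 CPM in activated and 0.0972 and 0.229 CPM in resting libraries, and its resting libraries held 2 and 7 counts.

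A further 3 surface genes had no or almost no resting counts. Cd300c, an activating receptor of myeloid cells, had 533 and 82 counts in activated A and B and 0 and 3 in resting A and B, a ratio of group totals of 207 with a 95% counting interval from 70.3 to 1004. Havcr1, the phosphatidylserine receptor TIM-1, had 385 and 51 counts in activated libraries and 0 in each resting one. Against a limit of 3 counts over both resting libraries it was at least 146-fold higher. Epha2, a receptor tyrosine kinase for ephrins, had 116 and 38 counts in activated libraries and 0 in each resting one, and was at least 51.7-fold higher. Fitted fold changes of these genes depend on the prior count: the log2 value of Havcr1 was 6.61 at a prior count of 2 and 8.60 at 0.5. Those of Cd300c and Epha2 are not given.

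To set the sequences of these genes beside their levels, the 250 bases before the start of 4 genes that differed in their pattern are shown: Siglech with the highest fitted fold change at a prior count of 2, Bst2 with high levels in all libraries, and Csf2rb2 and Ly6c2, each with a close relative. They come from RefSeq on GRCm38.p6, 5' to 3' on the strand of the gene, and capitals mark matches to 5 motifs on either strand.
Siglech, chr7:55767934-55768183, plus strand: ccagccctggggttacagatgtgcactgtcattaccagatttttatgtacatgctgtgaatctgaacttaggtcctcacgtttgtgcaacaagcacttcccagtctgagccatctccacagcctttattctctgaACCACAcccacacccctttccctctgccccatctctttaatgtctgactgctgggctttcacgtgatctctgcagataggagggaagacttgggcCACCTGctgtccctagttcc
Bst2, chr8:71537473-71537722, minus strand: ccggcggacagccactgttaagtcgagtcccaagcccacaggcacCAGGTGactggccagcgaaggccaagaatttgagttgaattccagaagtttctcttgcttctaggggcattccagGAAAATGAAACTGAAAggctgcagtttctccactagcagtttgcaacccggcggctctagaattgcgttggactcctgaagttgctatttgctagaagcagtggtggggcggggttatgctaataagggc
Csf2rb2, chr15:78305722-78305971, minus strand: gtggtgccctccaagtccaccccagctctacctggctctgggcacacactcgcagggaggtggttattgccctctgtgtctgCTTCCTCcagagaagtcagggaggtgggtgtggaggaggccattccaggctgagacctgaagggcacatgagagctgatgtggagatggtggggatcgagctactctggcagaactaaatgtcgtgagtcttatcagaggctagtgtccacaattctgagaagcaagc
Ly6c2, chr15:75111972-75112221, minus strand: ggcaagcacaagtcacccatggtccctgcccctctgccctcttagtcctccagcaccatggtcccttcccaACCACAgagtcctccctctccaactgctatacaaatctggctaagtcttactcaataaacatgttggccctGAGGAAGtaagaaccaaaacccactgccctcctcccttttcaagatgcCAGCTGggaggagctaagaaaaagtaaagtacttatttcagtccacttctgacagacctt
Positions count back from -1, the base before the start, to the leftmost base of the match. Siglech held the E-box CACCTG at -20 and the Runx motif TGTGGT, read on the opposite strand, at -115. Bst2 held CACCTG on the opposite strand at -205 and a pair of overlapping interferon response elements, each made of 2 blocks GAAA with any 2 bases between them, at -130 and -124. Csf2rb2 held the purine box GAGGAAG on the opposite strand at -168. Ly6c2 held the E-box CAGCTG at -60, GAGGAAG at -108 and TGTGGT on the opposite strand at -179. CAGCTG reads the same on both strands, and no other matches in these 4 windows overlap.

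Promoters were found for 31 of the 38 genes in the table, and the motifs were counted in the same window of all 27025 promoters. CACCTG stood in 9 of the 31 (29%) and in 17.1% of all, CAGCTG in 2 (6.45%) and in 12.8%, and GAGGAAG in 8 (25.8%) and in 10.4%. The interferon response element stood in 3 (9.68%) and in 3.04% of all, and TGTGGT in 8 (25.8%) and in 14.2%. At least 1 of the 5 stood in 21 of the 31 (67.7%) and in 45.6% of all, at a median GC content of 52.4% and 52%. The 3 genes with the interferon response element were Bst2, Cd300c and Rnase6. A match of letters is a description and not a bound site, and no test was made.

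Ly6c2 and its relative differed in opposite directions. Ly6c2 encodes an antigen of the Ly6C antibodies, a small surface protein of monocytes, plasmacytoid cells and some T cells, and had 123 and 33.1 CPM in activated and 3.26 and 6.95 CPM in resting libraries. The neighbouring Ly6c1, which encodes a near-identical protein, had 24.6 and 16.2 CPM in activated and 167 and 89.3 CPM in resting libraries. The groups did not overlap in either gene, and the log2 fold changes were 3.91 for Ly6c2 and -2.64 for Ly6c1. Ly6c1 was not called by edgeR (adjusted p = 0.267) and was called lower by DESeq2 (adjusted p = 1.45e-09). The coding sequences, of 396 bases each, differ at 9 bases, with an identity of 97.7% and a longest identical run of 188 bases. The coding bases 1 to 90, where 6 of the differences fall, are shown because reads over them tell the genes apart; capitals mark the differing bases (GENCODE M21 on mm10, chromosome 15, minus strand).
Ly6c2: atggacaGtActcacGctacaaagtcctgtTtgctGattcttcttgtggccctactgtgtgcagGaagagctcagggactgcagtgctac
Ly6c1: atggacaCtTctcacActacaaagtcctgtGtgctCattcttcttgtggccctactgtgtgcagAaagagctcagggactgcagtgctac
Sources used here do not state how reads shared by the pair were counted, so single values of either gene are uncertain.

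Receptors for cytokines and chemokines were at least 2-fold higher in 5 of 5 genes (9.65% of all genes tested), with a median log2 fold change of 4.85. Flt3, the receptor tyrosine kinase that drives dendritic cell development, had 33.7 and 7.70 CPM in activated and 1.07 and 0.686 CPM in resting libraries, a log2 fold change of 4.46. Csf2rb, the common beta chain of the receptors for interleukin 3, interleukin 5 and GM-CSF, had 48.8 and 15.4 CPM in activated and 1.94 and 0.229 CPM in resting libraries. Csf2rb2, an added beta chain that mice have for interleukin 3, had 56.0 and 13.3 CPM in activated and 0.778 and 0.0653 CPM in resting libraries. Their log2 fold changes were 4.85 and 6.22, and 6.72 and 7.96 without resting A, in which both stood above resting B. The coding sequences of Csf2rb2 and Csf2rb share 95.2% of 2631 aligned bases, with a longest identical run of 242 bases, so their single values are uncertain too. Cd209d and Cd209a share 68.9% of 707 aligned bases, with no identical run over 20 bases.

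**Figure D4:**
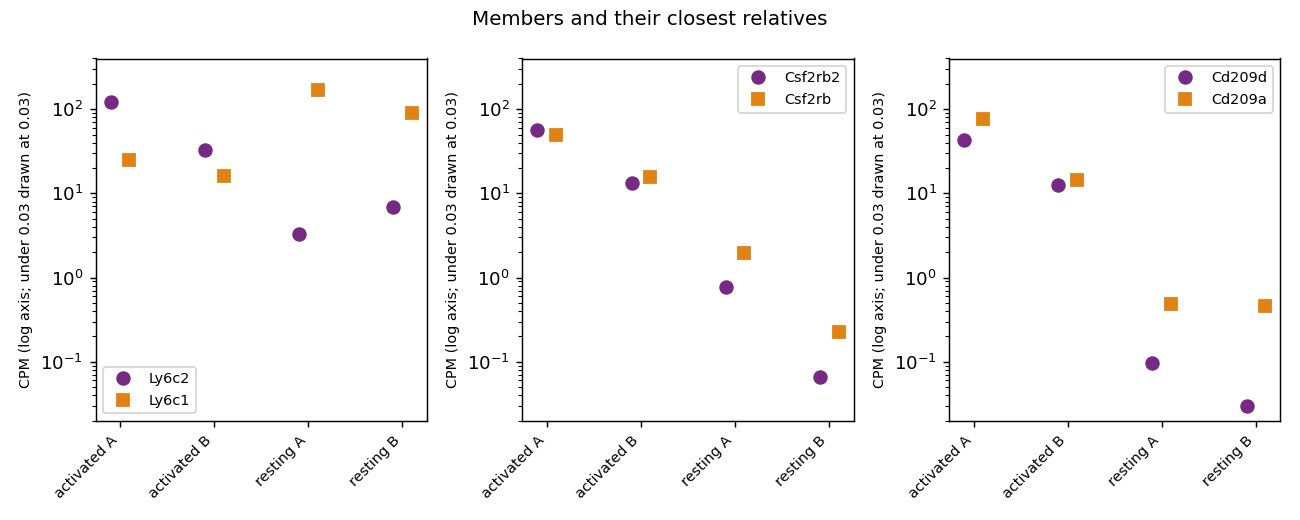
CPM of 3 pairs of related genes in the 4 libraries, on a log axis, activated libraries on the left of each panel. Ly6c2 is higher and Ly6c1 lower in activated libraries, whereas Csf2rb2 and Csf2rb, and Cd209d and Cd209a, are both higher in activated libraries, most in activated A.

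Lifr, a receptor chain for leukemia inhibitory factor, had 58.2 and 9.82 CPM in activated and 0.243 and 0.0653 CPM in resting libraries. Among the genes counted in both activated libraries it had the widest gap between them, 5.92-fold, and a log2 fold change of 7.27, which was 5.43 without activated A. Ccr9, the receptor for the gut and thymus chemokine CCL25, had 146 and 44.0 CPM in activated and 25.4 and 21.3 CPM in resting libraries, a log2 fold change of 2.03, which was 0.92, under 2-fold, without activated A. Ccr9 was among 7 genes of the 38 with over 20 CPM in both resting libraries, beside Irf8, Tlr7, Grn, Cst3, Bst2 and Pacsin1. Of 9 measured partner genes of the common beta chain, Flt3 and Lifr, edgeR called 0, as over all genes. DESeq2 also called 0, against 1.93% higher and 0.668% lower over all genes. The 1 gene with an unadjusted edgeR p below 0.05 was on the lower side, which held 2.61% of all genes, against 6.3% on the higher. Stat3 had 261 and 293 CPM in activated and 268 and 295 CPM in resting libraries, Stat5b had 153 and 160.4 CPM in activated and 165 and 182 CPM in resting libraries, and Cish, a feedback inhibitor of Stat5, had 146 and 165 CPM in activated and 122 and 135 CPM in resting libraries. Il6st, the gp130 chain that pairs with Lifr, had 207 and 158 CPM in activated and 287 and 271 CPM in resting libraries (edgeR unadjusted p = 0.0281).

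Enzymes, lipid proteins and other intracellular proteins were at least 2-fold higher in 7 of 8 genes (9.65% of all genes tested). Their median log2 fold change was 4.97. Klk1, a serine protease of the kallikrein family, had 1262 and 229 counts in activated A and B, against 4 and 0 counts in resting A and B. In CPM it had 41.3 and 11.3 in activated and 0.194 and 0 in resting libraries, a log2 fold change of 7.34. With so few resting counts this fitted value depends on the prior count: it was 8.01 at a prior count of 0.5, and 5.57 on the regularized log2 scale. Cox6a2, a subunit of cytochrome c oxidase known from heart and muscle, had 30.1 and 8.09 CPM in activated and 0.438 and 0.0653 CPM in resting libraries. In both genes activated B lay between activated A and the resting libraries. Kmo, a hydroxylase of tryptophan breakdown, had 82.3 and 16.6 CPM in activated and 1.51 and 0.686 CPM in resting libraries, a log2 fold change of 5.43. Pltp, which transfers phospholipids between lipoproteins, had 56.2 and 14.7 CPM in activated and 1.26 and 0.555 CPM in resting libraries. Alox5ap, the activating protein of leukotriene synthesis, had 52.9 and 15.1 CPM in activated and 1.07 and 1.31 CPM in resting libraries. Smim5, a small membrane protein, had 33.1 and 7.70 CPM in activated and 0.729 and 0.718 CPM in resting libraries, and its resting libraries were all but equal. Plac8, a small cysteine-rich protein, had 109 and 43.0 CPM in activated and 3.35 and 7.34 CPM in resting libraries, with resting B above resting A as in Runx2 and Ly6c2.

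Pacsin1, an adaptor of membrane traffic that plasmacytoid cells of mice need for their interferon response, went with none of these. It had 69.4 and 80.2 CPM in activated and 62.5 and 71.9 CPM in resting libraries. The groups overlapped, activated B was the highest, and the log2 fold change was 0.15. Its ratio of activated A to B was 0.864, the lowest among genes counted in both.

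Levels of different genes were compared per length of exon. Counts were divided by exon length in kilobases and each library was scaled to the same total. On that scale the highest levels in activated Treg were 369.6 ± 187 for Bst2, 353 ± 277 for Ly6d and 342 ± 28.8 for Cst3 (mean ± SD, n = 2). Siglech followed with 149 ± 144 and Grn with 144 ± 77.0, which did not differ beyond their spread. The lowest were Epha2 with 1.77 ± 0.977, Batf3 with 1.48 ± 1.16 and Tlr9 with 0.9997 ± 1.41. Tcf4, with 7.23 ± 7.37, was at place 34 of the 38 by level, next to Paqr5. In resting Treg, Bst2 stood at 192 ± 27.6 and Siglech at 0.431 ± 0.317 on the same scale.

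**Figure D5:**
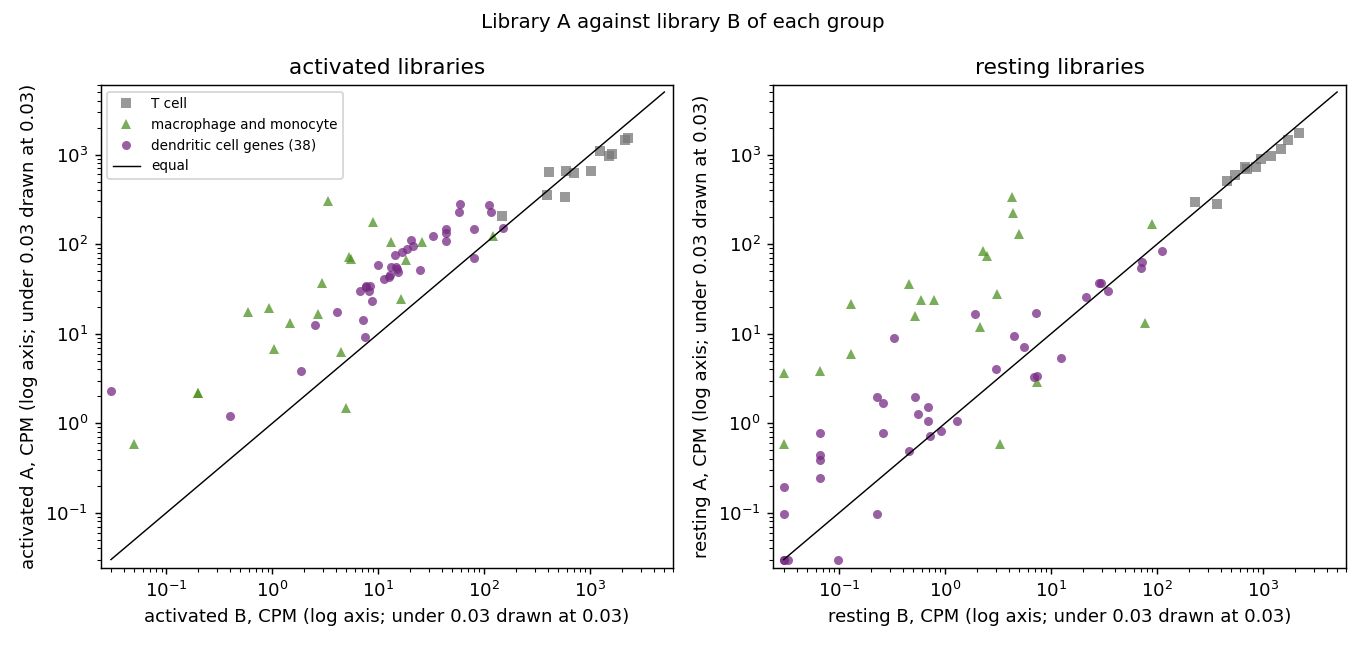
CPM in library A against CPM in library B of each group, on log axes, for the 38 genes (purple circles), macrophage genes (green triangles) and T cell genes (grey squares), with the line of equal values. In the activated libraries 37 of the 38 genes lie above the line, and in the resting libraries 24 do. Of all 14235 genes tested, 7364 were higher in A in activated and 7116 in resting libraries. Most macrophage genes lie far above the line in both groups.

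A list of 29 further genes known from plasmacytoid cells had a median log2 fold change of 1.28. Of these, edgeR called 0, as over all genes. DESeq2 called 9 higher and 1 lower, against 1.93% and 0.668% over all genes. Unadjusted edgeR p-values below 0.05 were held by 11 on the higher and 1 on the lower side, against 6.3% and 2.61%. Some are also expressed in T cells. Tspan13, a tetraspanin, had 460.5 and 331 CPM in activated and 379 and 354.5 CPM in resting libraries, and Irf7 overlapped between the groups. Cybb, a subunit of the phagocyte oxidase, had 248 and 133 CPM in activated and 29.5 and 42.8 CPM in resting libraries. Klra17 and Hs3st1, chosen after their values were seen, had 0 counts in both resting libraries and were at least 259-fold and at least 129-fold higher. The interferon genes had almost no counts: Ifna2 had 0 counts in all 4 libraries, and Ifna4 and Ifnb1 had 2 counts each, all in activated B.

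Conventional dendritic cell genes had a median log2 fold change of 2.52. Of the 19, edgeR called 0, as over all genes. DESeq2 called 4 higher and 0 lower, against 1.93% and 0.668% over all genes. Unadjusted edgeR p-values below 0.05 were held by 11, all on the higher side, against 6.3% higher and 2.61% lower over all genes. Cd74, the invariant chain of MHC class II, had 3410 and 1211 CPM in activated and 483 and 183 CPM in resting libraries. The class II genes H2-Aa and H2-Ab1 had 636.5 and 153 CPM and 621 and 161 CPM in activated libraries, against 56.1 and 13.8 CPM and 52.3 and 14.7 CPM in resting ones. They shared the step between activated A and B with the 38 genes, and also differed between resting A and B. Cd83, which activated T cells also express, had 492 and 884 CPM in activated and 131 and 275 CPM in resting libraries, and so was higher in activated B. Of markers of single subsets, Clec9a had 10.8 and 1.88 CPM in activated and 0.389 and 0 CPM in resting libraries. Xcr1 had 1.96 and 2.27 CPM in activated and 0.437 and 0.718 CPM in resting libraries. Clec10a had 24.5 and 7.80 CPM in activated and 0.292 and 0 CPM in resting libraries. In Sirpa the groups overlapped, with 44.9 and 6.71 CPM in activated and 20.1 and 0.131 CPM in resting libraries. These subset markers were chosen after their values were seen.

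The 10 genes outside these lists whose profile over the 4 libraries was most like the median profile of the 36 tested genes were Rgs18, Gapt, Napsa, Slamf9, Slc41a2, Cdh1, Scimp, Ppfia4, Spns3 and Mef2c. Likeness was the Euclidean distance between log2(CPM + 0.5) profiles, each centred on its mean over the 4 libraries, among 9006 genes of at least 5 CPM on average. The distances ran from 0.0949 for Rgs18 to 0.736 for Mef2c, against a median of 3.997 over the genes searched and of 1.35 over the 36. Rgs18, a regulator of G protein signalling, had 16.7 and 3.85 CPM in activated and 0.194 and 0.131 CPM in resting libraries. Gapt, an adaptor protein, had 16.3 and 3.75 CPM in activated and 0.194 and 0.0653 CPM in resting libraries. Mef2c, a transcription factor of the MADS family, had 39.8 and 7.80 CPM in activated and 2.04 and 1.502 CPM in resting libraries. Cdh1, which encodes the adhesion protein E-cadherin, had 30.6 and 4.93 CPM in activated and 0.292 and 0.424 CPM in resting libraries.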

How the data were processed

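Libraries came from total RNA amplified with a low-input template-switching kit, per the labels' protocols. The submitters' processing notes name STAR 2.4.0c, featureCounts, DESeq2 and mm10, without roles; sources used here state neither strand setting nor handling of shared reads. Raw counts per gene were deposited for 38924 identifiers. A second deposited table holds the authors' regularized log2 values, used as an alternative input. Symbols and exon lengths came from GENCODE M21 (37607 identifiers matched), promoters from RefSeq (GRCm38.p6).

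Genes were kept by filterByExpr (minimum count 10, minimum total 15); 14235 remained, with 36 of the 38 genes described (not Batf3 and Tlr9, whose fold changes come from a fit with no filter). Groups were compared with edgeR 4.0.16 in R 4.3.3 on group alone, with TMM factors between 0.962 and 1.04 and Benjamini-Hochberg adjustment at a threshold of 0.05. The biological coefficient of variation was 0.352, the smallest adjusted p 0.267. DESeq2 1.42.0 and limma 3.58.1 were alternatives. The exact permutation test of 2 libraries against 2 cannot go below p = 0.333 and was not run. Replicate numbers were not used as pairs in the main fit. The labels describe independent animals, but whether same-numbered replicates of the 2 groups share an animal is not known here. The members and all lists were chosen with earlier results of these data known. Named were every member, the 4 list genes with the highest mean CPM, the sort markers and the 10 nearest profiles; 1 gene that the rule names is not reported here. Flt3l and Faim3 were not matched by symbol and are not analysed here. The promoters, the pairs of relatives and the motifs were chosen after values were seen.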

Additional observations from a re-analysis of the deposited data

How the results depend on the processing

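The count of genes called over all genes, 0 by edgeR, depended on the method: it was 852 with no filter on low counts (675 higher, 177 lower), 412 by DESeq2 (306 higher, 106 lower), and 0 with DESeq2 size factors, by limma-voom and by limma on the regularized log2 values. Genes of the other lists called, 0 by edgeR, were 50 with no filter and 25 by DESeq2. Leaving out each library in turn gave 0 to 370 genes called over all genes, with 0 when activated A was left out, 62 when activated B was, 370 when resting A was and 198 when resting B was, and 0 to 45 genes of the other lists. With the replicate number as a block on the regularized log2 values, 819 genes (629 higher, 190 lower) and 39 list genes were called. Same-numbered replicates deviated together across genes (r = 0.652 over 2 pairs), a hint from the data and not from the design, so this block is not used elsewhere. The alternatives for the other lists were added after seeing the data. The count of members at least 2-fold higher stayed between 29 and 34 and their median log2 fold change between 3.16 and 5.02 under the alternatives run; 1 member, Tlr7, was at least 2-fold lower without activated A. The median log2 ratio of activated A to B was 1.83. On the regularized log2 values, a scale that shrinks low counts by construction, the median of activated replicate 1 less replicate 2 was 1.64. Those values carry replicate numbers and the columns of counts do not, so the letters are not matched to the replicates. Of 298 recomputed log2 fold changes of single members, 16 moved by more than the spread between replicates. The cause of the differences between methods was not tested. Depth limits Tlr9, Batf3, Cd209d, Cd300c, Havcr1, Epha2 and Klk1, each with 0 counts in at least 1 library.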
